A study of Mus musculus with 8 samples.

Results

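Transcript levels of 10 genes that sense low oxygen or drive blood vessel growth were examined in mouse fetal hearts with and without type 3 deiodinase (DIO3), the enzyme that inactivates thyroid hormone. The genes, chosen by name with earlier results of these data known, were *Hif1a*, *Epas1*, *Egln1*, *Egln3*, *Vegfa*, *Vegfb*, *Vegfc*, *Angpt1*, *Angpt2* and *Adm*, 10 of the 26590 gene symbols in the deposited table. Total RNA from 4 Dio3+/+ and 4 Dio3-/- hearts on a C57BL/6J background was sequenced after depletion of ribosomal RNA, each library from an individual fetus. No treatment was given, and a Dio3-/- fetus lacks the enzyme in every tissue. The study found raised serum T3, a thyroid hormone, in Dio3-/- fetuses at E18.5, and reports very low DIO3 activity in the fetal heart. In its RNA sequencing of these hearts it found T3-responsive genes raised, and quantitative PCR on further samples again found *Klf9*, *Hr* and *Myh6* raised. The study proposes that impaired hormone clearance in the whole body affected the heart by E13.5. Hormone levels of these 8 hearts are not given. The sample titles place all 8 hearts at E13.5, while the age field gives E18.5 for 2 of the 4 Dio3-/- hearts and E13.5 for the other 6, and the study's methods name a stage 1 day later than the titles. The table holds no values of single hearts. For each transcript row it gives the authors' mean in each genotype, read here as RPKM (reads per kilobase of transcript, scaled to the mapped reads of the library), and the coefficient of variation (CV, the SD divided by the mean). A gene with several rows is described by its highest row, judged by the average of the 2 genotype means, and its other rows are given beside it.

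Cells read oxygen through hypoxia-inducible factors (HIFs). When oxygen is sufficient, prolyl hydroxylases of the EGLN family modify the HIF-α subunits and mark them for destruction, and when oxygen is low the subunits persist, pair with ARNT and switch on genes of glycolysis, red cell production and vessel growth, among them *Vegfa*, *Adm* and *Egln3* themselves. Much of this control acts on the protein, so a transcript level does not show the activity of a HIF. In the fetal heart, VEGF from the myocardium and angiopoietins from the vessel wall and myocardium guide the growth of the coronary vessels.

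*Adm*, *Egln3*, *Vegfa* and *Egln1* rose in Dio3-/- hearts, with ratios of the Dio3-/- to the Dio3+/+ mean of 1.86, 1.43, 1.40 and 1.26. The other 6 genes did not pass the test, among them both HIF-α genes, *Hif1a* and *Epas1*. The test was limma's empirical Bayes test on the log2(RPKM + 0.5) scale, calculated from the means and CVs, with Benjamini-Hochberg adjustment over all 32703 rows above 1 RPKM in at least 1 genotype. By it, 4 of the 10 genes were higher and 0 were lower with an adjusted *P* value under 0.05, and 6 of the 10 had an unadjusted *P* value under 0.05. Among all 14657 genes tested, 1.91% were higher and 0.382% were lower by the same rule, 19.7% had an unadjusted *P* value under 0.05, and 63.3% had a positive log2 fold change. The median log2 fold change of the 10 genes was 0.30, and that of all genes tested was 0.04. The 10 genes were chosen with earlier results of these data known, so these contrasts are not those of an independently chosen set. All 10 genes passed the limit for testing in both genotypes. Welch's test, calculated from the same means and CVs on the RPKM scale without logs, called 0 of the 10 genes after adjustment. In it, 6 of the 10 had an unadjusted *P* value under 0.05. Both the scale and the test thus differ from those of the limma result. The 4 genes above had adjusted *P* values from 0.0768 to 0.143 in Welch's test. It works from rounded summaries and does not repeat the study's own test on single hearts.

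The letters upstream of these genes are shown because HIFs bind the core letters ACGTG or GCGTG in the genes they control. RefSeq promoter windows on GRCm38.p6 were found for 7 of the 10 genes and were not found for *Epas1*, *Angpt1* and *Angpt2*. Each window below holds the 250 bases before the most upstream annotated start, 5′ to 3′ on the strand of the gene, and capitals mark ACGTG and GCGTG on either strand (CACGT and CACGC where the match is on the other strand). The 4 genes that rose are followed by *Hif1a*, which did not pass the test.
*Adm* (chr7:110627407-110627656, plus strand): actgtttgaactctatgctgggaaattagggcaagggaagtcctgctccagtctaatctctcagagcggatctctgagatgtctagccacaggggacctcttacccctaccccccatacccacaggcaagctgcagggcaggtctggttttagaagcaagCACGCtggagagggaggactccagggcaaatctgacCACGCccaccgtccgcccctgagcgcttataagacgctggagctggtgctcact
*Egln3* (chr12:54203875-54204124, minus strand): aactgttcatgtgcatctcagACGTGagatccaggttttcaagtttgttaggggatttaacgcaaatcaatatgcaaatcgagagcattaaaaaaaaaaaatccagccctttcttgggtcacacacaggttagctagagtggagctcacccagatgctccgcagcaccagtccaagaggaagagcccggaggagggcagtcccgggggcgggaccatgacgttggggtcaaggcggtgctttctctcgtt
*Vegfa* (chr17:46032378-46032627, minus strand): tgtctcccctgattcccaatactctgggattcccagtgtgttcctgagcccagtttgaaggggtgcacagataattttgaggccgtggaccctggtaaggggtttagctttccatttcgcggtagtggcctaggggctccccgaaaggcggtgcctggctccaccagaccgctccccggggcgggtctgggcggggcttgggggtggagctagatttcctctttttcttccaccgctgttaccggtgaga
*Egln1* (chr8:124949255-124949504, minus strand): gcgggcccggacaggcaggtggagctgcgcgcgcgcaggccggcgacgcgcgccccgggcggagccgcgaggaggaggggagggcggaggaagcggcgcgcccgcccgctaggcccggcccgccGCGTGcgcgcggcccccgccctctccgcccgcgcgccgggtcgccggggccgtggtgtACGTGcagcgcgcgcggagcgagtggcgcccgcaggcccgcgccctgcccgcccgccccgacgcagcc
*Hif1a* (chr12:73907617-73907866, plus strand): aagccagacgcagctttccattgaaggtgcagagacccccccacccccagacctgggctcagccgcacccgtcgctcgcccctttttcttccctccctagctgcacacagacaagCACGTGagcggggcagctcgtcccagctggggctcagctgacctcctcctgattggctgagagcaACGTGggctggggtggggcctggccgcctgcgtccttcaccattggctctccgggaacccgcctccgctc

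The *Adm* window held 2 matches, both GCGTG on the other strand, the *Egln3* window held 1 ACGTG, the *Egln1* window held 1 ACGTG and 1 GCGTG, and the *Vegfa* window held none. A later annotated start of *Vegfa* had 2 matches in its own window (chr17:46025164-46025413). That window lies inside the gene, downstream of the first start, and both matches fall within its protein-coding sequence. In *Hif1a* there were 3 matches, of which 2 overlap because CACGTG reads the same on both strands. One or the other core was present in the most upstream window of 5 of the 7 genes and in 38.6% of all 32841 RefSeq windows. The windows of the 7 genes had a GC content from 50.8% to 86.0%. AGGTCA, the half-site that thyroid hormone receptors share with other nuclear receptors, was present on either strand in the windows of *Hif1a* and *Vegfb* and in 14% of all windows. These are matches of letters, and binding was not measured.

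In Dio3+/+ hearts the levels of the 10 genes ran from 1.52 RPKM for *Angpt2* to 111.88 RPKM for *Hif1a*. *Vegfb* was the next highest at 80.70 RPKM, followed by *Egln1* (35.37 RPKM), *Angpt1* (23.62 RPKM), *Vegfa* (22.62 RPKM), *Epas1* (15.18 RPKM), *Vegfc* (9.10 RPKM), *Egln3* (5.85 RPKM) and *Adm* (3.04 RPKM). Each gene differed from the next in this order by more than the sum of their SDs, except *Angpt1* and *Vegfa*, which differed by 1.00 RPKM against a sum of SDs of 1.62 RPKM. In Dio3-/- hearts *Vegfa* stood above *Angpt1*, at 31.57 against 21.74 RPKM, a gap larger than the sum of their SDs of 2.45 RPKM. The pair not separated there was *Vegfc* and *Egln3*, at 9.17 and 8.34 RPKM. The rest of the order was the same in both genotypes.

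**Figure D1:**
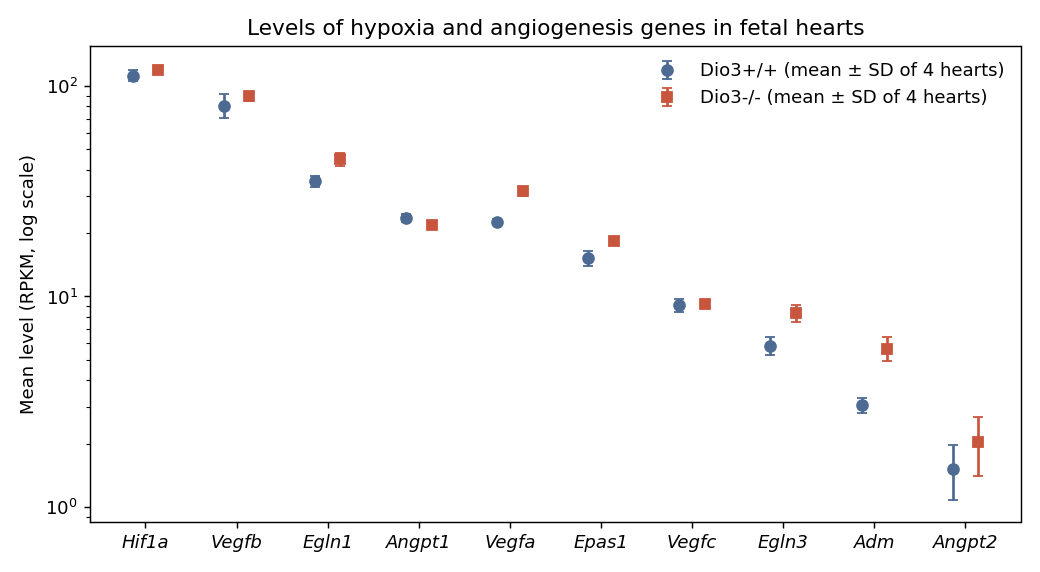
Mean level of each of the 10 genes in RPKM on a log scale, in Dio3+/+ (circles) and Dio3-/- hearts (squares), with bars of 1 SD over the 4 hearts derived from the deposited CV. The genes are ordered by their Dio3+/+ level, from *Hif1a* at 111.88 RPKM to *Angpt2* at 1.52 RPKM, and *Vegfa* and *Angpt1* stand in opposite order in the 2 genotypes.

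Values of single hearts were bounded from the summaries. With 4 values and an SD taken with 3 degrees of freedom, no value can lie more than 1.5 SDs from the mean. The largest CV in the table was 2, the most that such an SD allows for 4 values. With the largest rounding error of 0.005 added to each CV and mean, 5 of the 10 genes had ranges that cannot overlap between the genotypes, all higher in Dio3-/- hearts: *Adm*, *Egln3*, *Vegfa*, *Egln1* and *Epas1*. Over all genes tested, 3.40% were separated in this way with higher values in Dio3-/- hearts and 0.457% with lower ones. For these 5 genes every Dio3-/- heart was therefore above every Dio3+/+ heart, including the Dio3-/- hearts with an age field of E18.5. The same arithmetic limits how far the 2 Dio3-/- hearts labelled E18.5 can differ on average from the other 2, to 6.06% of the Dio3-/- mean for *Epas1*, 9.53% for *Vegfa*, 13% for *Egln1*, 16.5% for *Egln3* and 23.4% for *Adm*. A result without those 2 hearts could not be calculated.

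**Figure D2:**
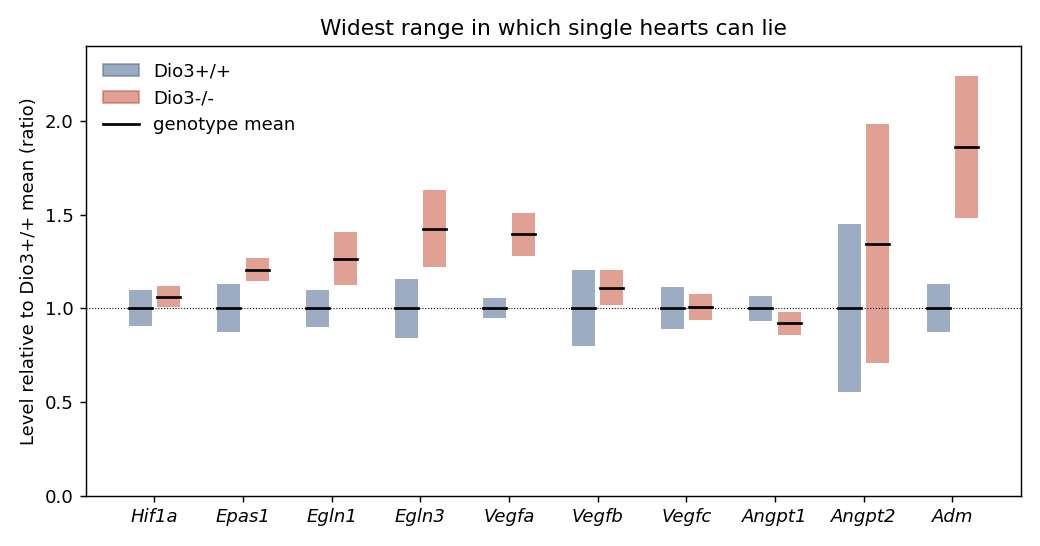
Widest range in which the 4 hearts of a genotype can lie, given the deposited mean and CV and their rounding, divided by the Dio3+/+ mean, with the genotype mean as a black line. The Dio3-/- range lies wholly above the Dio3+/+ range for *Epas1*, *Egln1*, *Egln3*, *Vegfa* and *Adm*, and the ranges overlap for the other 5 genes.

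Neither HIF-α gene was past the threshold. *Hif1a*, which encodes HIF-1α, had a mean of 111.88 RPKM (CV 0.06) in Dio3+/+ hearts and 118.74 RPKM (CV 0.03) in Dio3-/- hearts. The possible ranges of single hearts, 101 to 122.8 RPKM and 112.5 to 125 RPKM, overlapped. On the log2 scale the difference was 0.09 (95% interval −0.03 to 0.20, adjusted *P* = 0.429 by limma), so a rise above 0.20 lay outside the interval of this row. Its 4 rows had log2 fold changes from 0.09 to 0.13, and none passed. The value of 0.13 came from the lowest row, whose 95% interval ran from 0.01 to 0.25. *Epas1*, which encodes HIF-2α and is abundant in endothelial cells, had a mean of 15.18 RPKM (CV 0.08) in Dio3+/+ hearts and 18.32 RPKM (CV 0.03) in Dio3-/- hearts. No Dio3+/+ heart can have been above 17.12 RPKM and no Dio3-/- heart below 17.35 RPKM. Its log2 fold change of 0.26 (95% interval 0.13 to 0.40, adjusted *P* = 0.0595 by limma) was not past the threshold, and the adjusted *P* value was 0.048 when only rows with a mean above 5 RPKM were tested. The *Hif1a* mean was 7.37 times the *Epas1* mean in Dio3+/+ and 6.48 times in Dio3-/- hearts.

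Both prolyl hydroxylase genes rose. *Egln1* encodes PHD2, the main hydroxylase of HIF-1α at normal oxygen. Its mean was 35.37 RPKM (CV 0.06) in Dio3+/+ hearts and 44.74 RPKM (CV 0.07) in Dio3-/- hearts, and the possible ranges, up to 38.82 RPKM and from 39.70 RPKM, did not meet. *Egln1* differed by 0.33 on the log2 scale (95% interval 0.19 to 0.48, adjusted *P* = 0.0330 by limma). After the median log2 ratio of all rows, 0.04, was subtracted (centring), the difference was 0.30 and the adjusted *P* value was 0.0619. *Egln3* encodes PHD3, itself a well-known HIF target. It had a mean of 5.85 RPKM (CV 0.10) in Dio3+/+ hearts and 8.34 RPKM (CV 0.09) in Dio3-/- hearts, with Dio3+/+ hearts at most at 6.78 RPKM and Dio3-/- hearts at least at 7.15 RPKM. *Egln3* differed by 0.48 on the log2 scale (95% interval 0.29 to 0.67, adjusted *P* = 0.0246 by limma). *Egln1* and *Egln3* each have 1 row. *Egln2*, the third member of the family, had means of 14.45 and 15.59 RPKM and a log2 fold change of 0.11 (95% interval −0.06 to 0.28, adjusted *P* = 0.501 by limma). The differences between the log2 fold changes of these 3 genes were not tested.

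Of the VEGF genes, *Vegfa* was past the threshold, and *Vegfb* and *Vegfc* were not. *Vegfa* encodes VEGF-A, the main signal for endothelial growth. In its highest row the mean was 22.62 RPKM (CV 0.03) in Dio3+/+ hearts and 31.57 RPKM (CV 0.05) in Dio3-/- hearts. Dio3+/+ hearts were at most at 23.81 RPKM and Dio3-/- hearts at least at 28.96 RPKM, the widest relative gap among the 10 genes after that of *Adm*. The log2 fold change was 0.47 (95% interval 0.36 to 0.58, adjusted *P* = 0.00228 by limma), the lowest adjusted *P* value of the 10. All 8 *Vegfa* rows passed, with means from 15.72 to 22.62 RPKM in Dio3+/+ and from 21.35 to 31.57 RPKM in Dio3-/- hearts. Their log2 fold changes ran from 0.40 to 0.47 and their adjusted *P* values from 0.00228 to 0.0182 by limma. The rows are overlapping transcripts that share reads, so they are not separate evidence, and which splice form each row stands for was not used here.

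*Vegfb* encodes VEGF-B, a ligand of VEGF receptor 1 that is abundant in heart muscle. Its means were 80.70 RPKM (CV 0.13) and 89.62 RPKM (CV 0.05), and the possible ranges of 64.35 to 97.05 RPKM in Dio3+/+ and 82.22 to 97.02 RPKM in Dio3-/- hearts overlapped. On the log2 scale *Vegfb* differed by 0.15 (95% interval −0.04 to 0.35, adjusted *P* = 0.398 by limma), and the second row gave 0.16. *Vegfc* encodes VEGF-C, which acts mainly on lymphatic vessels and on coronary sprouts. Its means were 9.10 RPKM (CV 0.07) and 9.17 RPKM (CV 0.04), a log2 fold change of 0.01 (95% interval −0.13 to 0.15, adjusted *P* = 0.950 by limma). Its 3 rows lay between −0.03 and 0.01. The mean of *Vegfb* was 3.57 times that of *Vegfa* in Dio3+/+ and 2.84 times in Dio3-/- hearts, and *Vegfa* was 2.49 and 3.44 times *Vegfc*.

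The angiopoietins were not past the threshold. *Angpt1* encodes angiopoietin-1, which activates the TIE2 receptor and stabilizes vessels. Its mean was 23.62 RPKM (CV 0.04) in Dio3+/+ hearts and 21.74 RPKM (CV 0.04) in Dio3-/- hearts, and single hearts could range from 22.02 to 25.22 RPKM and from 20.27 to 23.21 RPKM. The log2 fold change of −0.12 (95% interval −0.23 to −0.01, adjusted *P* = 0.232 by limma) was the only negative one among the 10 genes, and the second row gave −0.13. *Angpt2* encodes angiopoietin-2, which opposes angiopoietin-1 in remodeling vessels. It had the lowest level and the widest spread, with means of 1.52 RPKM (CV 0.29) and 2.04 RPKM (CV 0.31). Its ranges, 0.845 to 2.20 RPKM and 1.07 to 3.01 RPKM, overlapped over most of their length. *Angpt2* differed by 0.33 on the log2 scale (95% interval −0.12 to 0.78, adjusted *P* = 0.427 by limma), so neither no change nor a rise like that of *Egln1* lay outside the interval. The ratio of the *Angpt1* to the *Angpt2* mean was 15.5 in Dio3+/+ and 10.7 in Dio3-/- hearts, which was not tested.

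*Adm* had the largest difference of the 10 genes. It encodes adrenomedullin, a peptide that widens vessels and is needed for the development of heart, blood and lymphatic vessels. The mean was 3.04 RPKM (CV 0.08) in Dio3+/+ hearts and 5.66 RPKM (CV 0.13) in Dio3-/- hearts. Dio3+/+ hearts were at most at 3.43 RPKM and Dio3-/- hearts at least at 4.51 RPKM. The log2 fold change was 0.80 (95% interval 0.59 to 1.01, adjusted *P* = 0.00446 by limma), and 0.368% of the genes tested had a higher one. For *Egln3*, *Vegfa* and *Egln1* these shares were 1.15%, 1.19% and 2.89%. *Adm* was also the only gene of the 10 whose ratio of means was above 1.5 with an adjusted *P* value under 0.05. The study's methods name that limit on fold change. The list of changed genes that the study published was not held to it, and includes *Vegfa* but not *Adm*, *Egln1* or *Egln3*. Over all genes tested, 0.478% were higher by both limits.

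**Figure D3:**
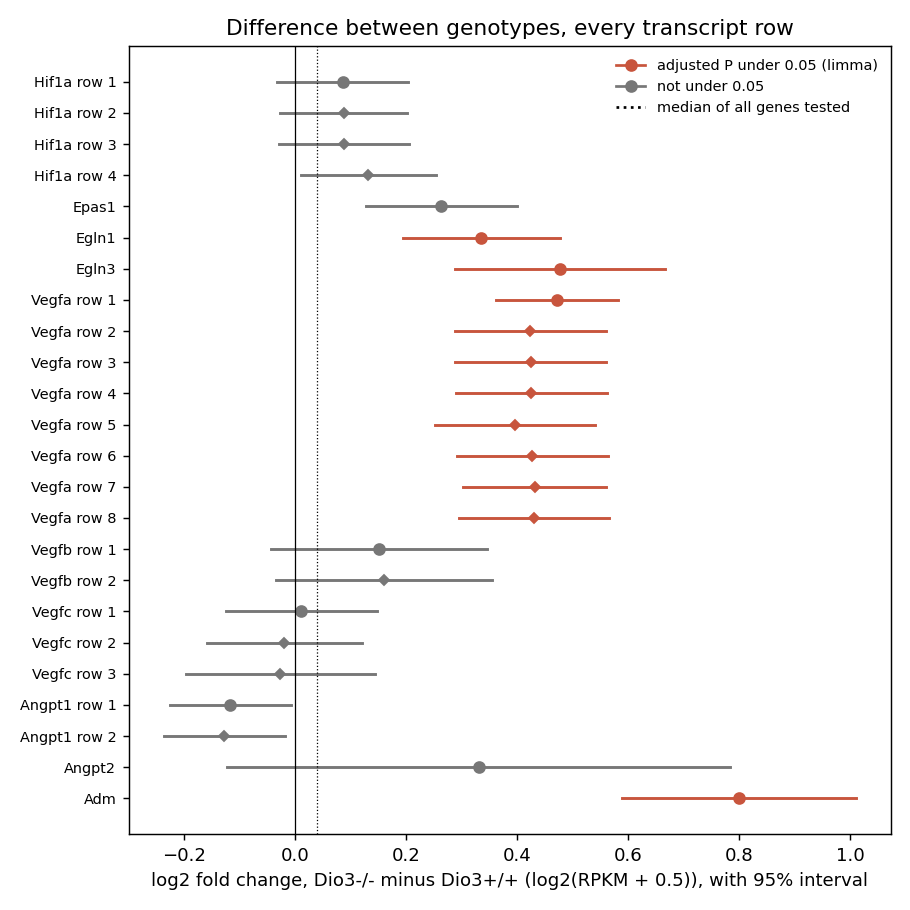
Log2 fold change between Dio3-/- and Dio3+/+ hearts with its 95% interval for each of the rows of the 10 genes, rows numbered by their mean level (circles, highest row; diamonds, other rows). *Adm* (0.80), *Egln3* (0.48), all 8 *Vegfa* rows (0.40 to 0.47) and *Egln1* (0.33) are past the threshold, and the dotted line is the median of all genes tested (0.04).

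Markers of the cell types of the heart and of other tissues were compared in the same way. *Dio3* itself was below the limit for testing, with means of 0.35 RPKM (CV 1.23) in Dio3+/+ hearts and 0.13 RPKM (CV 0.76) in Dio3-/- hearts, so it did not check the genotype labels. The series describes the hearts as male, but *Xist*, which is transcribed from the inactive X chromosome of females, had means of 35.64 RPKM (CV 0.99) and 39.97 RPKM (CV 0.55). The Y-linked *Eif2s3y* had means of 9.38 RPKM (CV 1.04) and 7.29 RPKM (CV 1.46). Both genes were thus expressed in both genotypes with a wide spread, so each group appears to hold hearts of both sexes. Sex was not part of the test. The heart muscle genes *Tnnt2*, *Actc1*, *Myl7*, *Nppa*, *Ttn* and *Actn2* were all at or above 62.80 RPKM in both genotypes, and 6 of 6 had a positive log2 fold change, with a median of 0.23 and 0 past the threshold by limma. At an unadjusted *P* value under 0.05 there were 5. Their summed level was 7949 RPKM in Dio3+/+ hearts and 9281 RPKM in Dio3-/- hearts. Of 10 endothelial markers, 10 had a positive log2 fold change and 0 passed, with 2 at an unadjusted *P* value under 0.05 (20.0%, against 19.7% of all genes tested), a median of 0.11 and summed levels of 279.57 and 307.43 RPKM. Of 8 liver markers, 8 were positive with a median of 1.88 and 0 passed, although all 8 had an unadjusted *P* value under 0.05. Their summed level was 15.98 RPKM in Dio3+/+ hearts and 108.11 RPKM in Dio3-/- hearts, with Dio3-/- CVs from 0.89 to 1.26, while the largest Dio3-/- CV among *Adm*, *Egln3*, *Vegfa* and *Egln1* was 0.13. At the CVs of the liver markers the SD on the log2 scale, approximated from the CV, is rough. The 8 unadjusted *P* values of the liver markers by limma are therefore uncertain. Of the 7 red cell markers 6 were found, and all 6 were negative with a median of −1.43. Among them *Hbb-bh1* passed, and their summed level was 39554 RPKM in Dio3+/+ hearts and 13689 RPKM in Dio3-/- hearts. RPKM is a share of all mapped reads, and the part of the globin share in the shift of 0.04 in the median log2 ratio was not tested. Pericyte and fibroblast markers (0 of 6 past the threshold, median 0.04, 0 at an unadjusted *P* value under 0.05) and macrophage markers (0 of 5, median −0.06, also 0) had medians near that of all genes tested. In a whole heart, a change in the number of cells of a type and a change in RNA per cell cannot be told apart, and the part of these markers in the rise of *Vegfa*, *Adm*, *Egln1* and *Egln3* was not tested.

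Among 9 other regulators of HIF, 1 fell and none rose, against 0.382% lower and 1.91% higher of all genes tested. At an unadjusted *P* value under 0.05 there were 2 (22.2%, against 19.7% of all genes tested). *Cited2*, which encodes a protein that competes with HIF-1α for the coactivators CBP and p300, fell from 32.04 RPKM (CV 0.08) to 25.78 RPKM (CV 0.02), a log2 fold change of −0.31 (95% interval −0.44 to −0.18, adjusted *P* = 0.0344 by limma). Both of its rows passed. *Hif3a*, whose product can restrain the other HIFs, had means of 22.14 RPKM (CV 0.06) and 18.54 RPKM (CV 0.04) and a log2 difference of −0.25 (adjusted *P* = 0.0529 by limma). In both genes the possible ranges of the hearts did not overlap. The adjusted *P* value of *Hif3a* was 0.0426 with centring and also when only rows with a mean above 5 RPKM were tested, and that of *Cited2* was 0.0521 without the mean-variance trend and 0.0530 with each CV raised by 0.005. *Arnt*, the partner of HIF-α, *Arnt2*, *Egln2*, *Hif1an*, *Vhl*, *Ep300* and *Crebbp* had log2 fold changes from −0.19 to 0.11. *Vhl*, which directs hydroxylated HIF-α to destruction, had means of 9.22 and 9.35 RPKM, and *Hif1an*, which encodes the asparaginyl hydroxylase of HIF-α, had 13.35 and 13.46 RPKM. The median of the 9 genes was 0.01.

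None of the other VEGF genes and receptors passed (0 of 7, median 0.12), with 2 at an unadjusted *P* value under 0.05 (28.6%, against 19.7% of all genes tested). *Flt1*, which encodes VEGF receptor 1, had means of 13.43 and 15.74 RPKM and a log2 fold change of 0.22 (95% interval 0.06 to 0.39, adjusted *P* = 0.140 by limma). *Kdr*, which encodes VEGF receptor 2, had 25.10 and 27.88 RPKM and a log2 fold change of 0.15 (95% interval 0.02 to 0.28, adjusted *P* = 0.207 by limma). Values on the same scale were 0.12 for *Flt4*, which encodes VEGF receptor 3, 0.10 for the coreceptor gene *Nrp1*, and −0.47 for *Nrp2*, whose CV in Dio3+/+ hearts was 0.58. Among the ligands, *Pgf* had −0.24 and *Figf*, which encodes VEGF-D, had 0.12. *Vegfa* was thus past the threshold while its receptors were not, and the difference between them was not tested.

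The partners of the angiopoietins held 1 gene that rose among the 3 tested, against 1.91% higher of all genes tested. By limma, 2 of the 3 had an unadjusted *P* value under 0.05 (66.7%, against 19.7% of all genes tested). *Ptprb*, which encodes an endothelial phosphatase that dampens TIE2, rose from 6.33 RPKM (CV 0.06) to 8.49 RPKM (CV 0.05), a log2 difference of 0.40 (adjusted *P* = 0.0127 by limma) with ranges that cannot overlap. In the other of its 2 rows the log2 fold change was 0.37 and the threshold was not passed. *Tek*, which encodes TIE2, had means of 32.07 and 35.94 RPKM and a log2 difference of 0.16 (adjusted *P* = 0.198 by limma), and *Tie1* had 0.10. *Angpt4* was below the limit, at 0.07 and 0.04 RPKM. The median of the 3 genes was 0.16. Of the partners of adrenomedullin, 0 of 4 tested passed (median 0.09), with 2 at an unadjusted *P* value under 0.05 (50%, against 19.7% of all genes tested). *Calcrl*, the receptor gene, had means of 19.16 and 21.17 RPKM and a log2 difference of 0.14 (adjusted *P* = 0.203 by limma), and *Ramp2*, whose product makes that receptor respond to adrenomedullin, had 50.64 and 52.46 RPKM and 0.05. *Ramp1* had a log2 fold change of 0.14 and *Cxcr7*, which encodes a scavenger of the peptide, had −0.30 (adjusted *P* = 0.227 by limma). *Adm2* and *Ramp3* were below the limit, with means from 0.22 to 0.70 RPKM.

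Of 17 glycolytic HIF targets tested, 2 rose and none fell, against 1.91% higher and 0.382% lower of all genes tested. A positive log2 fold change was found in 16 of the 17 (94.1%, against 63.3% of all genes tested), with a median of 0.20. By limma, 10 of the 17 had an unadjusted *P* value under 0.05 (58.8%, against 19.7% of all genes tested). *Slc16a3*, which encodes a lactate exporter, rose from 46.49 RPKM (CV 0.09) to 63.67 RPKM (CV 0.09), a log2 difference of 0.45 (adjusted *P* = 0.0258 by limma), and all 3 of its rows passed. *Hk2*, which encodes a hexokinase, rose from 15.99 to 20.87 RPKM (log2 fold change 0.37, adjusted *P* = 0.0408 by limma), but its adjusted *P* value was between 0.0565 and 0.0699 with centring, without the filter, without the trend and with raised CVs. *Aldoc* differed by 0.38 on the log2 scale (adjusted *P* = 0.246 by limma) and had CVs of 0.22 and 0.20. The exception in sign was *Slc2a1*, the glucose transporter gene, at −0.02 with means of 126.89 and 125.46 RPKM. *Pfkfb4* was below the limit. The median of 0.20 stood beside one of 0.23 for the heart muscle markers, and the part of muscle content in it was not tested.

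Of 22 other HIF targets tested, 2 rose and 1 fell, against 1.91% higher and 0.382% lower of all genes tested. A positive log2 fold change was found in 14 (63.6%, against 63.3% of all genes tested), and the median was 0.09. At an unadjusted *P* value under 0.05 there were 7 (31.8%, against 19.7% of all genes tested). *Higd1a*, which encodes a mitochondrial protein induced by hypoxia, rose from 14.71 RPKM (CV 0.07) to 20.31 RPKM (CV 0.10), a log2 difference of 0.45 (adjusted *P* = 0.0222 by limma). *Stc2*, which encodes a secreted glycoprotein, rose from 2.67 to 3.68 RPKM (log2 fold change 0.40, adjusted *P* = 0.0441 by limma), in 1 of its 2 rows. *Hmox1*, which encodes the enzyme that breaks down heme, fell from 43.80 RPKM (CV 0.26) to 20.38 RPKM (CV 0.31), a log2 difference of −1.09 (adjusted *P* = 0.0481 by limma). *Bnip3l*, a mitophagy gene that is also used in maturing red cells, had means of 105.29 and 74.20 RPKM and a log2 difference of −0.50 (adjusted *P* = 0.0773 by limma). The red cell markers, with a median of −1.43, moved in the same direction as *Hmox1* and *Bnip3l*, and their part in these values was not tested. *Stc2* and *Hmox1* no longer passed with centring (adjusted *P* values of 0.0734 and 0.0543), without the filter (0.0824 and 0.0830) or with raised CVs (0.0626 and 0.0550), and *Hmox1* also not without the trend (0.0636). *Epo* was listed at 0 in Dio3+/+ hearts and averaged 0.01 RPKM in Dio3-/- ones. *Car9*, a target that responds strongly to hypoxia in many cells, had means of 1.18 and 1.14 RPKM and differed by −0.03 on the log2 scale. Over the 6 lists, 62 of 67 genes were tested, of which 5 rose and 2 fell, and 25 of the 62 (40.3%, against 19.7% of all genes tested) had an unadjusted *P* value under 0.05.

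**Figure D4:**
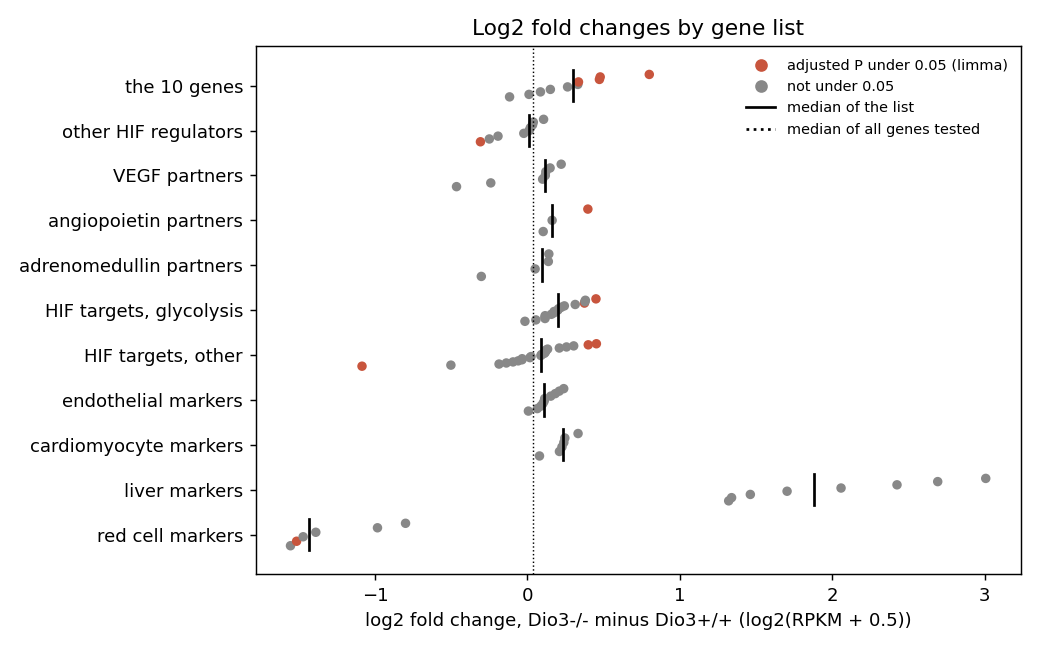
Log2 fold changes between Dio3-/- and Dio3+/+ hearts for the 10 genes, the 6 lists of pathway genes and 4 lists of cell markers, 1 point per tested gene, with the median of each list as a black bar. The 10 genes have a median of 0.30, the pathway lists have medians from 0.01 to 0.20, and the liver and red cell markers stand apart at 1.88 and −1.43.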

How the data were processed

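Single-end reads of 8 fetal heart libraries were processed by the authors and a sequencing company with FastQC and Novoalign (version 2.08), as the submitters' processing notes name them. Only reads with 1 mapping position were used, and coverage was scaled by a factor per sample to equalize read totals. For the genome build, no name is given in the sources used here. The authors deposited 51414 transcript rows under 26590 gene symbols, with the mean of each genotype, whose unit the header does not name and which is read as RPKM from the filter in the Methods, and the CV, a ratio (SD over mean). Means multiplied by median GENCODE transcript lengths (19414 symbols with a length) summed to 0.54 (Dio3+/+) and 0.52 (Dio3-/-) of the largest total that RPKM allows. The deposited q value (an adjusted p-value), the fold change (a ratio) and 3 other columns of the authors' own comparison were not used. Values are rounded to 2 decimals. Values of single hearts and read totals are not part of the table, so the depth per sample and its precision are unknown from it.

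For each row, log2(mean + 0.5) was taken, and its SD was approximated as the SD in RPKM divided by (mean + 0.5) and by the natural log of 2. The approximation is rough where the CV is large. R 4.3.3 and limma 3.58.1 were used to shrink each row's variance (6 residual degrees of freedom) toward a trend on mean level, worth 3.52 prior degrees of freedom. This replaced a fit on single hearts, and the script was tested on simulated data. Log2 fold changes on this scale understate the change of low genes. *P* values measure the spread between 4 fetuses per genotype, and litters are not given. Rows above 1 RPKM in at least 1 genotype were tested, and genes are counted by their highest row. A value with an adjusted *P* value under 0.05 counts as past the threshold.

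The 10 genes and all lists (6 of pathway genes, 6 of cell type markers) were chosen with earlier results of these data known. Genes named besides the 10 are the ligands and receptors of the VEGF, angiopoietin and adrenomedullin lists, list genes past the threshold, and the 2 largest changes in each other list. *Egln2*, *Vhl*, *Hif1an*, *Arnt*, *Slc2a1*, *Car9*, *Epo* and *Pfkfb4* were named after their values were seen, as were the other HIF regulators. Python (version 3.11.15), pandas (2.3.3) and matplotlib (3.10.9) were used for sequences and plots. The alternatives are listed in the closing section.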

Additional observations from a re-analysis of the deposited data

How the results depend on the processing

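The alternatives were pseudocounts of 0.1 and 1, no filter on low values, only rows with a mean above 5 RPKM, 1 row per gene, no trend of the variance with level, Welch's test, centring on the median log2 ratio, each CV raised by its rounding error of 0.005, and the second row of *Hif1a*, *Vegfa*, *Vegfb*, *Vegfc* and *Angpt1*, the 5 genes with more than 1 row. Of the 10 genes, 4 were past the threshold under each of them except Welch's test (0) and centring (3, without *Egln1*), and of these 4 the second row could be tried for *Vegfa* alone (adjusted *P* = 0.00890 by limma). The 4 were *Adm*, *Egln1*, *Egln3* and *Vegfa*, except above 5 RPKM, where *Adm* and *Angpt2* were not tested and *Epas1* passed. By limma the highest adjusted *P* value over the alternatives was 0.00890 for *Vegfa*, 0.0107 for *Adm*, 0.0473 for *Egln3* and 0.0619 for *Egln1*. The 7 pathway list genes past the threshold became 4 without a filter, 4 without the trend, 3 with raised CVs and 0 with Welch's test (18 at an unadjusted *P* value under 0.05). Over all genes, the 336 past the threshold became 197 without a filter, 180 with centring, 187 with raised CVs and 26 with Welch's test, and centring lowered the share that was higher from 83.3% to 71.7%. The log2 fold change changed sign for *Vegfc* with centring (−0.027) and in its second row (−0.020), and with centring for *Arnt* (−0.0044), *Hif1an* (−0.026), *Vhl* (−0.019), *Plod2* (−0.021) and *Narf* (−0.015), none of which was past the threshold. The causes of these differences were not tested. The count of 5 genes whose hearts cannot overlap was also 5 with the values as rounded in the table, an alternative added after seeing the data. No paired analysis was possible because the table holds genotype means, and for the same reason leaving out each heart was not run. Read depth, which limits low genes such as *Angpt2*, is not known from the table.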
